A study of Pinus elliottii with 16 samples.

Results

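The 100 most abundant features of slash pine control cambium were described over stimulant paste and time. They are the 100 of 8949 deposited features with the highest mean normalized fragment count over the 8 libraries of trees wounded without paste. A feature is an annotated locus or transcript model, and a normalized count is the authors' estimated fragment count divided by that library's size factor. The vascular cambium is the layer of dividing cells between wood and bark. Its daughter cells become xylem on one side and phloem on the other, and in pines it also gives rise to the resin ducts whose output is harvested by tapping. Wounding and the plant hormone ethylene are known to increase the formation of such ducts in conifers. The files pair no identifier with a gene name, so no role can be given to any of the 100, and the tissue label could not be checked against marker genes.

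The 16 libraries came from adult trees of Pinus elliottii in 4 groups of 4: control at day 5, control at day 15, paste at day 5 and paste at day 15. All trees had been tapped with a conventional paste over the year before, and all had bark stripped for the experiment. Paste trees then received a commercial paste with Ethrel, a source of ethylene, together with sulfuric acid and rice husk powder. No group received a single agent, and effects of the agents cannot be told apart. Tissue came from just above the wound, RNA was depleted of ribosomal RNA, and the labels tie no library to a named tree. Differences between libraries in cell makeup and in RNA per cell cannot be told apart in such bulk samples.

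Libraries held 3323971 to 5203943 estimated fragments. The replicate 1 libraries of paste at day 5 and at day 15 were a nearly identical pair: over all features their counts differed by 1.71 times what counting alone gives, against 10.6 times or more in the other 119 pairs. Of the 100 members, 97 were within 10% of each other in these 2 libraries. Paste day 15 replicate 3 stood apart from its group, with a mean correlation across the 100 members of 0.765 with paste at day 5 but 0.532 within its group. Over all features it was nearest paste day 5 replicates 2 and 4, at 13.8 and 19.7 times counting alone. From paste day 5 replicates 1 and 3 it was at 65.9 and 50.4 times. Those 2 libraries were themselves 47.9 to 58.3 times counting alone from replicates 2 and 4, so the day 5 paste group was not uniform. Calls of members and tests of shares that change without the nearly identical pair and paste day 15 replicate 3 are given with and without them. Spreads and medians include these 3 libraries. Control libraries with the same replicate number at both days deviated together from their group means, with correlations of 0.245 to 0.559, and each day 15 control matched its own number best.

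The 100 members held a smaller share of the signal with paste than in most controls. In day 5 controls they took 32.6%, 33.4%, 38.3% and 33.4% of the library total. In day 15 controls they took 41.7%, 35.01%, 32.1% and 32.1%. With paste the share was 30.2%, 32.8%, 26.9% and 31.6% at day 5. It was 30.1%, 31.4%, 26.2% and 29.0% at day 15. The highest paste share, in paste day 5 replicate 2, lay inside the range of the controls, and the other 7 paste shares lay below all 8 controls. Group means were 34.4% ± 2.62 and 35.2% ± 4.53 in controls and 30.4% ± 2.51 and 29.2% ± 2.21 with paste (SD, n = 4, day 5 then day 15). A share also depends on the library total, which ran from 3562719 to 5948021 normalized counts. The highest total was that of paste day 15 replicate 3, which had the lowest share. Summed counts of the members overlapped, at 1.28e+06 to 2.16e+06 in controls and 1.03e+06 to 1.89e+06 with paste. Since the control values chose the members, a lower share in other libraries is favoured by the choice and is given without a test. The difference between group means was spread over many members, with 70 of 100 lower in share and 30 higher at each day. It summed to -4.04 percentage points at day 5, of which PITA_000008841, the most abundant member, made up -0.760. Without control day 5 replicate 3 the sum was -2.75 and that member's part -0.136. At day 15 it summed to -6.07, of which the same member made up -2.36. Without control day 15 replicate 1 the sum was -3.91 and that member's part -0.369. Counting error was small beside these differences, with exact 95% binomial half-widths of 0.039 to 0.053 percentage points.

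**Figure D1:**
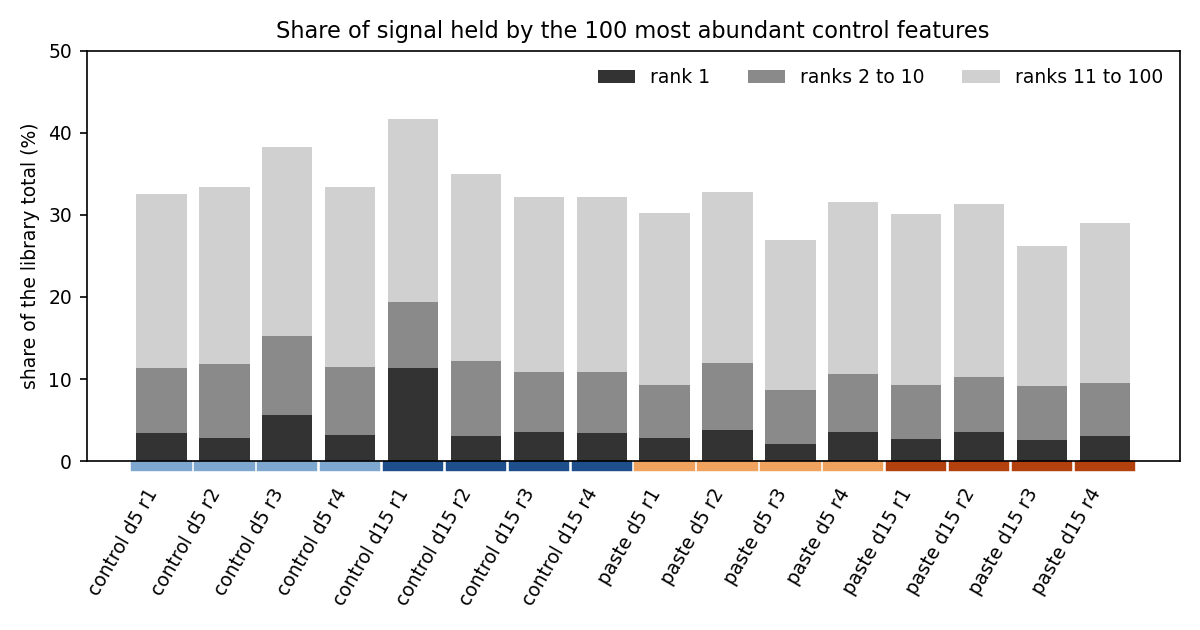
Share of the library total, in percent, held by the 100 members in each of the 16 libraries (d, day; r, replicate; colour strip, group), split into the most abundant member, ranks 2 to 10 and ranks 11 to 100. Control day 15 replicate 1 reaches 41.7%, of which 11.3% is 1 member, and paste libraries lie between 26.2% and 32.8%.

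The profile was steep at its top. The 2 most abundant members together held 5.39% to 13.5% of a control library and the first 10 held 10.8% to 19.4%. With paste the first 10 held 8.65% to 11.9%. The next 100 features in control rank held 9.36% to 11.3% in controls and 9.99% to 11.4% with paste. In count of features, 50% of a library's total was reached with 161 to 287 features in controls and with 168 to 318 with paste. At the edge of the rule, rank 99 (PITA_000018354) averaged 6079 and rank 100 (PITA_000053371) averaged 6014 over the controls, and PITA_000028229 and PITA_000018477 just outside it averaged 6008 and 5974. Feature lengths were not used here, so the ranking is of fragments and not of transcripts per length.

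PITA_000008841 was the most abundant member and the most uneven of the first 2. It stood at 141402, 129449, 295105 and 141610 in day 5 controls and at 584443, 130123, 145033 and 136158 in day 15 controls. With paste it stood at 109823, 215406, 77552 and 196924 at day 5 and at 107475, 147696, 154981 and 108952 at day 15. Control day 5 replicate 3 and control day 15 replicate 1 were high, and all groups overlapped. It ranked first in 15 of 16 libraries and second in paste day 5 replicate 3. Its log2 change with paste was -0.27 at day 5 (limma adjusted p = 0.788, SE 0.47) and -0.62 at day 15 (limma adjusted p = 0.672, SE 0.47). Without control day 15 replicate 1 the day 15 value was -0.10.

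PITA_000010885, the second member, was the steadiest of the 100 over the paste libraries, with an SD of 0.15 on the log2 scale. Its counts were 106661, 114324, 144574 and 123410 in day 5 controls and 113023, 106384, 102852 and 109642 in day 15 controls. They were 107241, 113314, 86958 and 92852 with paste at day 5 and 105748, 100277, 95656 and 84502 at day 15. Paste and control overlapped at both days, and its log2 change with paste was -0.29 at day 5 (limma adjusted p = 0.327, SE 0.15) and -0.17 at day 15 (limma adjusted p = 0.719, SE 0.15). Ranks 3 to 5 were PITA_000052860, PITA_000007991 and PITA_000012561. Their control means were 44158 ± 15371, 39460 ± 32617 and 35741 ± 7338 (SD, n = 8). PITA_000007991 ranged from 16298 to 106830 in controls and from 8473 to 56421 with paste. None of the 3 passed the limma threshold in a comparison.

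Members differed in how evenly they were expressed. Across the 8 controls the ratio of the highest to the lowest library had a median of 2.38 and ran from 1.21 to 71.2. It was below 2 for 36 members and above 10 for 8. Across the 8 paste libraries the median was 2.78, with 30 members below 2 and 16 above 10, and a highest ratio of 246. The median within-group SD of log2 values was 0.31 and 0.32 in controls and 0.48 and 0.50 with paste (day 5 then day 15). Over all 5856 tested features the same medians were 0.38 and 0.44 in controls and 0.55 and 0.65 with paste.

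Single libraries took the extremes of many members. Control day 5 replicate 3 was the highest of the 16 libraries for 30 members and control day 15 replicate 1 for 21. Paste day 15 replicate 4 was the lowest for 29 members, and its summed normalized count of 3562719 was also the lowest of all. Paste day 15 replicate 3 was the lowest for 20. The heat map of members by library shows these columns.

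**Figure D2:**
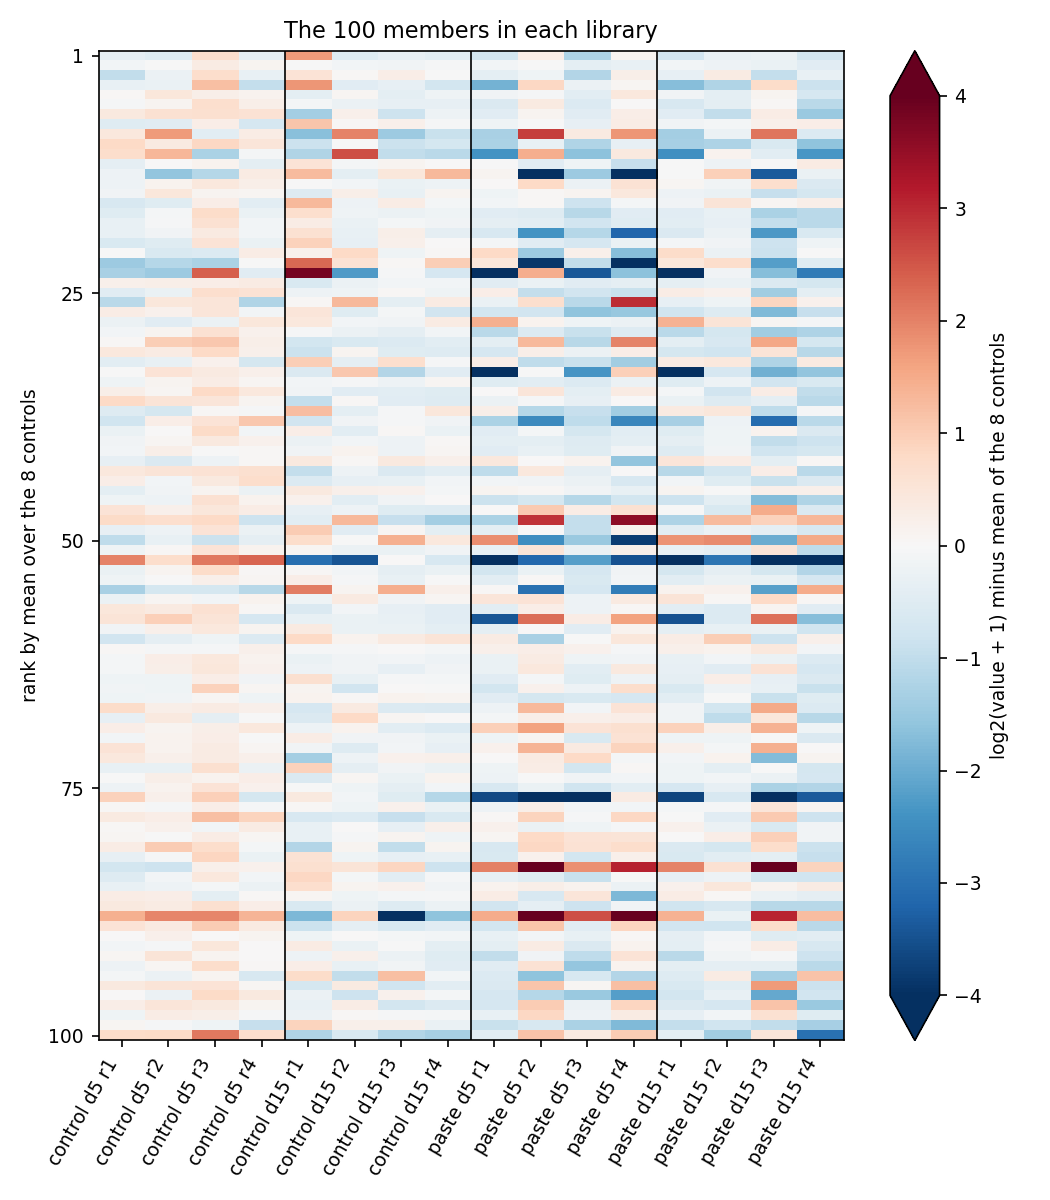
Each row is 1 of the 100 members in control rank order and each column 1 library (d, day; r, replicate), with colour for log2(value + 1) minus the mean of the 8 controls, limited to 4 in either direction. Most rows are pale, and 1 row at rank 52 is blue in all paste columns and in control day 15 replicates 1 and 2. The 2 rows at ranks 83 and 88 are red in most paste columns, the latter also in the day 5 controls.

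The top of the profile partly differed with paste, to an extent that varied between paste libraries. Of the 100 members, 73 were also among the 100 highest features by mean over the 8 paste libraries. All of the first 10 and 46 of the first 50 were kept. The 27 members that were not had paste ranks up to 1958, with a median of 140. The 2 lists from day 5 and day 15 controls alone shared 81 features. Within single libraries, 85 to 89 members were among that library's own 100 highest features in day 5 controls and 74 to 87 in day 15 controls. With paste it was 75, 60, 72 and 61 at day 5 and 74, 81, 46 and 73 at day 15. Paste day 15 replicate 3 was thus the lowest, and the paste and control ranges overlapped. The control libraries chose the members, so higher numbers in controls follow in part from the rule.

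The 27 features that stood among the 100 highest in paste libraries, but not in controls, had control ranks of 103 to 2591. They held 0.77% to 2.71% of a control library. In the nearly identical paste day 5 replicate 1 and paste day 15 replicate 1 they held 3.28% and 3.27%. The share was 8.98%, 5.22% and 11.1% in the other paste day 5 libraries, 13.6% in paste day 15 replicate 3, and 1.30% and 1.55% in paste day 15 replicates 2 and 4. Of the 27, 19 had their highest value of all in paste day 15 replicate 3, 4 in paste day 5 replicate 4 and 3 in paste day 5 replicate 2. The remaining 1 was highest in control day 5 replicate 3, so none was highest in any other paste library. These features were chosen on the paste values, so their levels are a description. Without the nearly identical pair and paste day 15 replicate 3, 77 of the 100 were shared between the lists of control and paste libraries.

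**Figure D3:**
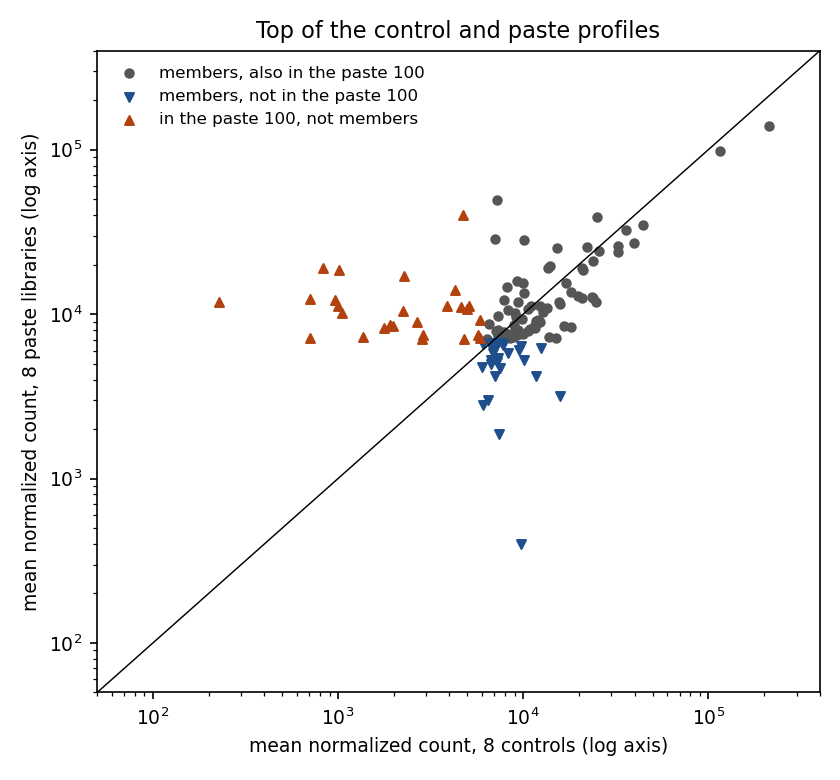
Mean normalized count over the 8 controls against that over the 8 paste libraries, both on log axes, for the 73 members also among the paste 100, the 27 members that were not, and the 27 features among the paste 100 that were not members; the line marks equal means. The 2 most abundant members stand first and second on both axes, and 1 member lies far below the line at a paste mean of 402.

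The share of the top features with and without paste was compared on control lists from the libraries of the other day. The 100 highest features of the 4 day 15 controls, 90 of them members, held 31.4% to 36.8% of day 5 controls and 26.3% to 30.9% of day 5 paste libraries. The groups did not overlap, and the means differed by -3.94 percentage points (exact two-sided permutation p = 0.0286, n = 4 per group, the smallest p that 70 splits allow). The 100 highest features of the 4 day 5 controls, 91 of them members, held 30.1% to 39.1% of day 15 controls and 26.6% to 29.3% of day 15 paste libraries. Again the groups did not overlap, with a difference of -5.60 percentage points (exact two-sided permutation p = 0.0286, n = 4 per group). Without control day 15 replicate 1 that difference was -3.75. Leaving PITA_000008841, the most abundant member, out of both lists gave -3.53 and -4.10 (exact permutation p = 0.0286 for each, n = 4 per group). Adjusted over the 7 share tests made, both exact permutation values were 0.10 and neither passed 0.05. Control libraries of the same number deviated together across days, so a list from one day is not free of the other day's controls. Both lists were also chosen for high control values, which favours a lower share with paste, so no effect of paste is read from these values.

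Lists chosen on paste libraries, and each library's own top 100, were added after the data were seen and gave other results. The 100 highest features of day 15 paste libraries held 33.8% ± 4.37 of day 5 paste libraries and 31.1% ± 1.98 of day 5 controls (SD; exact permutation p = 0.343, n = 4 per group). The 100 highest of day 5 paste libraries held 29.9% of day 15 libraries in both treatments (exact permutation p near 1). Each library's own 100 highest features, whichever they were, held 35.4% ± 2.85 in day 5 controls and 36.4% ± 5.69 with paste at day 5 (SD; exact permutation p = 0.829, n = 4 per group). At day 15 the values were 36.4% ± 4.88 and 34.2% ± 4.28 (SD; exact permutation p = 0.457, n = 4 per group). These results changed with the libraries kept. One of the day 15 paste libraries is the nearly identical partner of a day 5 paste library, so the day 15 paste list is not independent of day 5. Without the pair the differences for the paste lists were 4.22 percentage points at day 5 and 0.332 at day 15 (exact permutation p = 0.286 and 0.971, n = 3 and 4). Without the pair and paste day 15 replicate 3 they turned to -3.28 and -4.26 (exact permutation p = 0.114 and 0.133), with only 2 paste libraries left at day 15. That replicate was set aside because it resembled day 5 paste libraries, nearest replicates 2 and 4. Such a choice favours this turn, so nothing is read from it. No difference was detected in how much of a library its own top 100 took, and at day 15 that difference was -4.50 without the same 3 libraries (exact permutation p = 0.133, the smallest that 2 libraries against 4 allow).

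Single members were compared between paste and control at day 5 in a fit of all 5856 tested features, which held all 100 members. Of the 100, 4 were called lower and 0 higher with paste (limma, adjusted p below 0.05 by Benjamini-Hochberg, 4 libraries a group), and 25 passed an unadjusted p of 0.05, against 17.4% of all tested features. Over all tested features 0.632% were called, 0.444% lower and 0.188% higher. The control values entered both the rule and this comparison, so nothing is read from these shares. For a member whose place rests on the day 5 controls, the change at day 5 is a description. Of the 100 features highest in day 15 controls alone, a list that used no day 5 library, 2 were called lower and 0 higher. Both are members, PITA_000029808 and PITA_000007321.

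PITA_000007362 had the largest change among members at day 5. Its counts were 18223, 7514, 20009 and 23415 in controls and 158, 523, 1004 and 414 with paste. Every paste library lay far below every control. The log2 change was -5.20 (SE 0.80), about 36.9-fold, and without the nearly identical pair it was -4.72. At day 15 controls were at 571, 421, 4736 and 3005 and paste libraries at 158, 610.5, 100.2 and 248, so that the groups overlapped. It was a member only through the day 5 controls, which are 1 side of this comparison, so no test is read from it. The day 15 log2 change was -2.61 (limma adjusted p = 0.405, SE 0.80). Its control rank was 52 and its paste rank 1958.

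PITA_000029808 was lower with paste at day 5 than in any control. Its counts were 38243, 28231, 39707 and 30805 in controls and 9190, 18040.5, 9733 and 17785 with paste. The log2 change was -1.38 (limma adjusted p = 0.0465, SE 0.29). At day 15 it was at 12139, 22030, 12216 and 13605 in controls and at 8877, 9432, 14586 and 7195 with paste. Those groups overlapped, and the log2 change was -0.58 (limma adjusted p = 0.552, SE 0.29). The day 5 call held in 4 of 16 fits that left out 1 library, and without the nearly identical pair the log2 change was -1.21 (limma adjusted p = 0.116). Without the pair and paste day 15 replicate 3 the same value had a limma adjusted p of 0.0220.

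PITA_000007321 and PITA_000031810, the other 2 called members, were named after their values were seen. PITA_000007321 stood at 12378, 14375, 20612 and 15147 in day 5 controls and at 6302, 9176, 7218 and 9427 with paste. The highest paste value lay below the lowest control, and the log2 change was -0.95 (limma adjusted p = 0.0465, SE 0.20). At day 15 controls averaged 11822 ± 1100 and paste libraries 6411 ± 1388 (SD, n = 4), a log2 change of -0.90 (limma adjusted p = 0.285, SE 0.20). Its paste values lay wholly below control at both days. PITA_000031810 had a day 5 mean of 8979 ± 1007 without paste and 4810 ± 1100 with it (SD, n = 4), a log2 change of -0.92 (SE 0.18). It was not among the 100 highest features of day 15 controls and was a member only through the day 5 controls, so this too is a description. At day 15 the means were 5126 ± 694 and 3629 ± 611 (SD, n = 4), a log2 change of -0.50 (limma adjusted p = 0.470, SE 0.18), again with no overlap. The day 5 call of PITA_000007321 held in 3 of the 16 fits that left out 1 library. Without the nearly identical pair the change was -0.84 on the log2 scale (limma adjusted p = 0.121). The same value passed without the pair and paste day 15 replicate 3 (limma adjusted p = 0.0283). The day 5 call of PITA_000031810 held in 5 of the 16 fits that left out 1 library. Without the nearly identical pair its log2 change was -0.843 and it was not called, and without the pair and paste day 15 replicate 3 it was called.

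**Figure D4:**
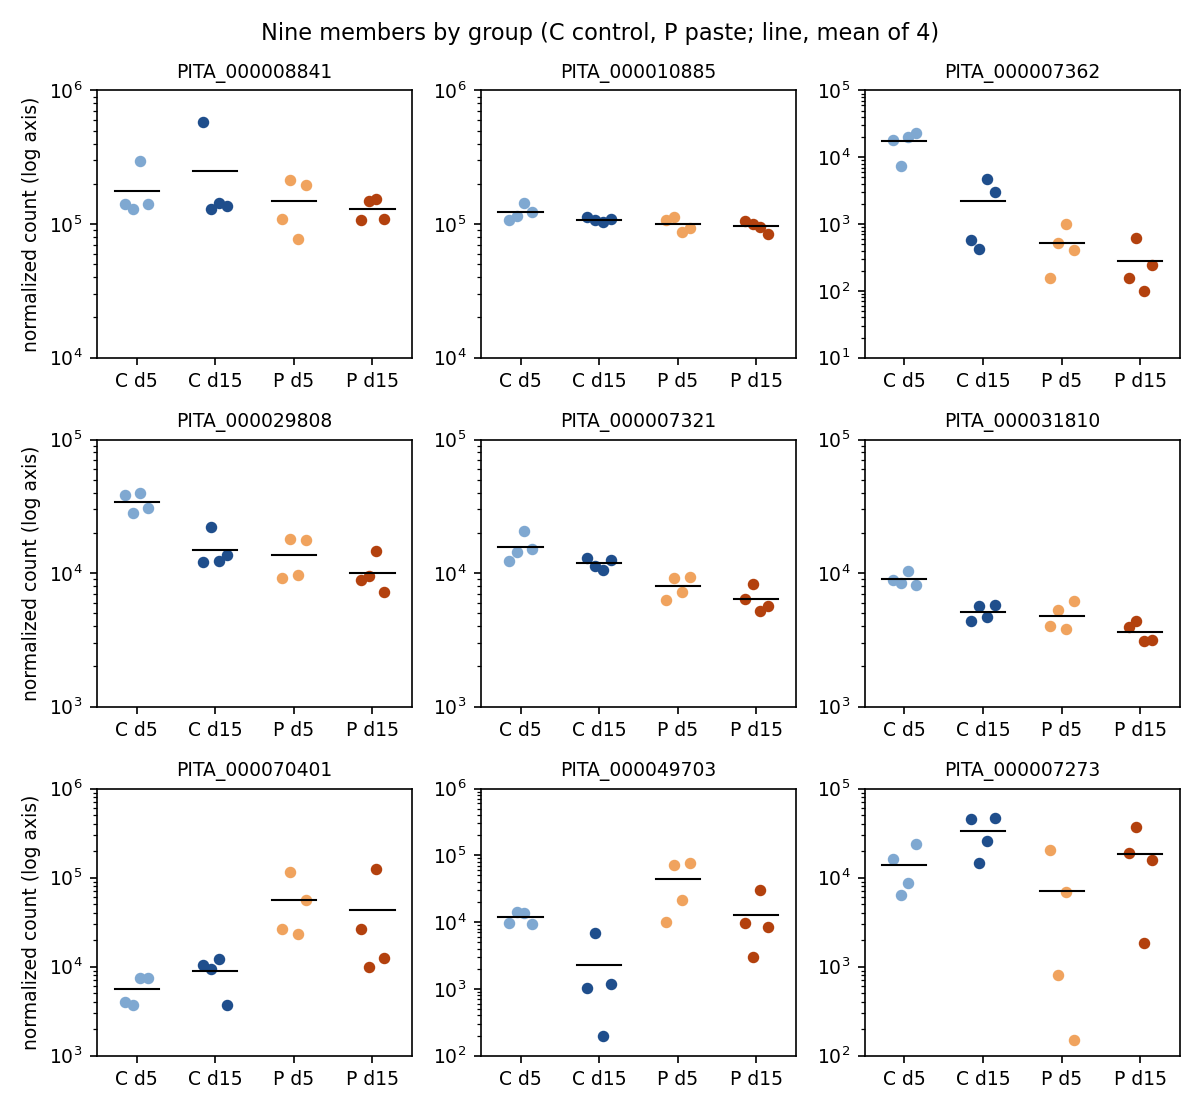
Normalized counts on log axes for 9 members in the 4 libraries of each group (C, control; P, paste; d, day), with a line at the mean of 4. PITA_000007362, PITA_000029808, PITA_000007321 and PITA_000031810 lie lower with paste than control at day 5 without overlap, PITA_000070401 lies higher, and PITA_000010885 lies between 84502 and 144574.

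Among members that did not pass, several had larger estimates than PITA_000029808. PITA_000070401 had the largest rise in estimate at day 5, at 3984, 3719, 7517 and 7417 in controls and 26672, 116851, 23208.5 and 56262 with paste. All paste libraries were above all controls. The log2 change was 3.07 (limma adjusted p = 0.0676, SE 0.71). It passed without paste day 15 replicate 3 (limma adjusted p = 0.0163), with voom and quality weights (0.0224), with only the groups compared (0.0336) and after scaling to totals (0.0375). Without the pair and paste day 15 replicate 3 it was 3.32 (limma adjusted p = 0.00619), and without the pair alone it did not pass (limma adjusted p = 0.108). At day 15 it was at 10306, 9397, 12039 and 3725 in controls and at 26389, 10008, 124970.0 and 12335 with paste, a log2 change of 1.64 (limma adjusted p = 0.520, SE 0.71). Of those paste values, 10008 lay within the range of the controls and 12335 just above it, and without paste day 15 replicate 3 the log2 change was 0.87. This member moved from control rank 83 to paste rank 3, and it took the largest gain in share of the 100, 0.955 percentage points at day 5.

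PITA_000049703 was at 9730, 14051, 13871 and 9238 in day 5 controls and at 10166, 70794, 21442 and 75989 with paste. The groups overlapped, and the log2 change was 1.52 (limma adjusted p = 0.412, SE 0.93). At day 15 controls were lower, at 1028, 6758, 197 and 1193, and paste libraries were at 9553, 3003, 30100.4 and 8492. The log2 change was 3.03 (limma adjusted p = 0.405, SE 0.93).

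PITA_000021201 was the second largest fall in estimate at day 5, at 12488, 7646, 12866 and 4033 in controls and at 542, 312, 258 and 8216 with paste. Paste day 5 replicate 4 lay among the controls and the other 3 far below them. The log2 change was -3.44 (limma adjusted p = 0.150, SE 1.08), and without that library it was -4.57 (limma adjusted p = 0.0402). At day 15 controls were at 8576, 6149, 4716 and 2968 and paste libraries at 514, 4268, 110.2 and 649. Here paste day 15 replicate 2 lay among the controls, and the log2 change was -3.05 (limma adjusted p = 0.456, SE 1.08).

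Across the 100 members the day 5 estimates leaned downward. The median log2 change was -0.28, with 77 below 0 and 23 above, and it was -0.05 over all 5856 tested features, with 52.8% below 0. The next 100 features in control rank had a median of -0.20, with 74 below 0. Estimates were past 2-fold downward in 11 members and upward in 2, against 11.1% and 10.1% of all tested features. Paste lay wholly below control in 19 members and wholly above in 2, against 6.49% and 6.63% of all tested features. Choosing features for high control values itself favours such a lean. For the list from day 15 controls, also chosen for high control values, the median was -0.27, with 75 below 0. For the 100 highest features of the paste libraries, a choice that favours the other direction, it was -0.05, with 52 below 0.

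At day 15 no member was called (limma, 0 of 100, smallest adjusted p = 0.285), and 19 passed an unadjusted p of 0.05, against 9.20% of all tested features. Over all tested features 0% were called. Voom with quality weights for libraries also called 0 members. The median log2 change was -0.24, with 76 members below 0, and -0.02 over all tested features. Paste lay wholly below control in 8 members and wholly above in 1, against 1.72% and 1.91% of all tested features. The day 15 controls helped to choose the members, which favours lower values with paste, so nothing is read from these shares. The lowest estimate after PITA_000021201 was that of PITA_000038287, and the log2 change was -2.88 (limma adjusted p = 0.597, SE 1.65). It stood at 78808 in control day 15 replicate 1, and at 1156, 5387 and 3506 in the other controls of that day. With paste it was at 82.5, 5048, 1716 and 808, and without control day 15 replicate 1 the log2 change was -1.68. For the list from day 5 controls, also chosen for high control values, the median was -0.19, with 73 of 100 below 0. For the 100 highest features of the paste libraries it was -0.03, with 52 below 0.

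**Figure D5:**
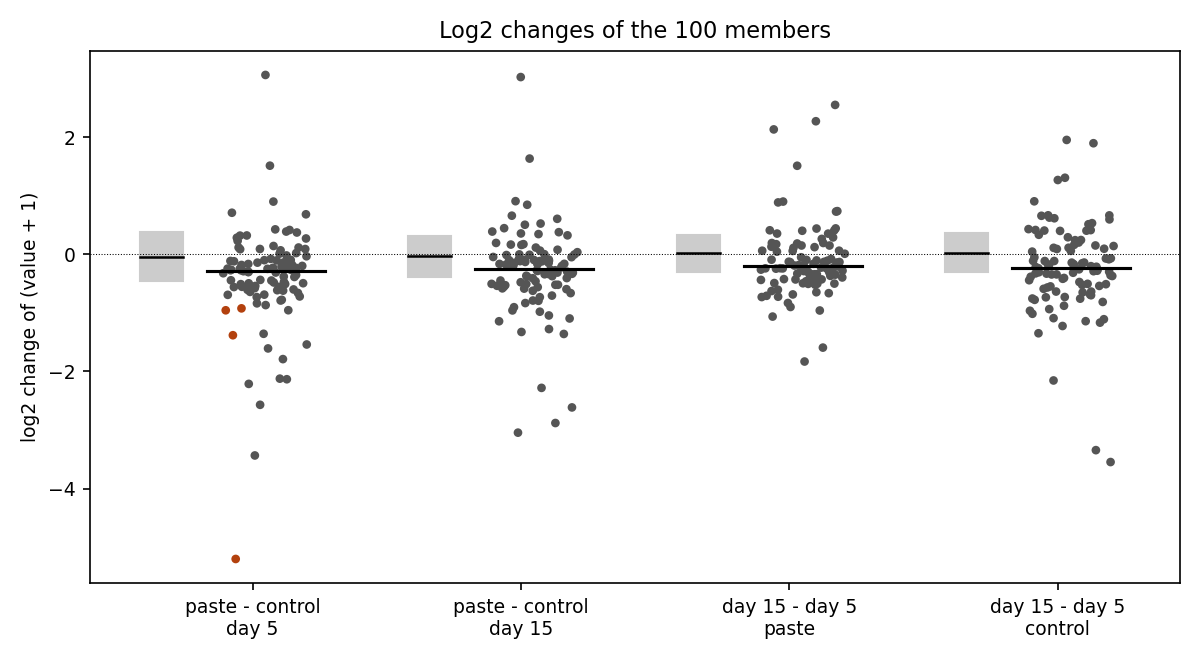
Log2 changes of the 100 members in 4 comparisons (points; orange, limma adjusted p below 0.05; line, median), beside a grey box from the lower to the upper quartile of all 5856 tested features with its median. Member medians lie between -0.28 and -0.20, and the 4 orange points are all in the day 5 comparison of paste with control.

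Set side by side, 69 members had a negative and 16 a positive estimate with paste at both days, and 15 differed in sign. Only PITA_000012834, PITA_000007321, PITA_000019532 and PITA_000031810, picked out after their values were seen, lay wholly below control at both days, and none of the 100 lay wholly above at both. Control values chose the members and no share over all tested features stands beside these counts, so nothing is read from them. Whether the effect of paste differed between days was examined in the same fit. The control values that chose the members also enter this contrast, so its counts are a description. No member passed (limma, 0 of 100, adjusted p near 1), 1 passed an unadjusted p of 0.05 against 1.06% of all tested features, and 0% of all features were called. The widest difference was in PITA_000007362, where the effect was less negative at day 15 by a log2 value of 2.59 (limma adjusted p near 1, SE 1.12). That feature was a member only through the day 5 controls, which favours a difference in this direction, so no test is read from it. Voom with quality weights for libraries called 0 members as well.

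The change with time in paste trees used no control value in its estimates. In this comparison no member was called (limma, 0 of 100, smallest adjusted p = 0.819), 4 passed an unadjusted p of 0.05 against 3.65% of all tested features, and 0% of all features were called. Voom with quality weights for libraries also called 0. The median log2 change from day 5 to day 15 was -0.20, with 69 members below 0, against 0.02 over all tested features. Day 15 lay wholly below day 5 in 1 member and wholly above in 0, against 0.359% and 0.359% of all tested features. The direction of that median depended on the fit, since voom with quality weights for libraries gave 0.05, with 48 members below 0 and a median over all features of 0.24. After scaling to library totals the median was -0.08, where the median of all features moved to 0.14. The share of the 100 members was 30.4% ± 2.51 at day 5 and 29.2% ± 2.21 at day 15 with paste (SD; difference -1.19 percentage points, exact two-sided permutation p = 0.457, n = 4 per group).

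One library of the nearly identical pair was in each group here. Without the pair and paste day 15 replicate 3, 24 members were called, 8 higher and 16 lower at day 15, and 19.7% of all tested features were called. Paste day 15 replicate 3 was set aside because it resembled day 5 paste libraries, nearest replicates 2 and 4 of that day. That choice favours such calls, and only replicates 2 and 4 then remained at day 15. PITA_000007273 had the largest rise in estimate, from 20295, 806, 6874 and 149 at day 5 to 18860.3, 36715, 1833 and 15888 at day 15. Low values occurred at both days, and the log2 change was 2.55 (limma adjusted p = 0.819, SE 1.25). It was the least steady of the 100 over the paste libraries, with an SD of 2.77 on the log2 scale. PITA_000009570 went from 31035, 1547, 3077 and 616 to 29755, 31591, 2185 and 24401, a log2 change of 2.28 (limma adjusted p = 0.819, SE 1.01). Paste day 15 replicate 3 was low in both of these members. The lowest estimates were those of PITA_000049703, at a log2 change of -1.83 (limma adjusted p = 0.819, SE 0.93), and PITA_000053371, at -1.59 (limma adjusted p = 0.819, SE 0.60). Without the pair and paste day 15 replicate 3 the log2 changes of PITA_000007273, PITA_000009570 and PITA_000053371 were 4.68, 4.28 and -3.03 (limma adjusted p = 0.0221, 0.00157 and 0.00384). That of PITA_000049703 was -3.27 and did not pass (limma adjusted p = 0.0547). Without paste day 5 replicate 4 the change of PITA_000007273 was 1.30 and that of PITA_000009570 was 1.501, and without paste day 15 replicate 4 that of PITA_000053371 was -0.95.

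In control trees the days are described only, because both chose the members. The median log2 change from day 5 to day 15 was -0.23, with 67 members below 0, against 0.02 over all tested features. The days did not overlap in 25 members, 21 lower and 4 higher at day 15, against 6.93% and 6.25% of all tested features. In the fit of all libraries no member was called (limma, 0 of 100, smallest adjusted p = 0.195), 22 passed an unadjusted p of 0.05 against 9.99% of all tested features, and 0% of all features were called. A fit of the 8 controls alone called 7 members, all lower at day 15, against 1.16% of all tested features. Voom with quality weights for libraries also called 7, against 0.751%. With the replicate number as a block in the 8 controls, 2 members were called, against 0.768%: PITA_000007362 at a log2 change of -3.55 and PITA_000007273 at 1.31. These calls use the values that chose the members and nothing is read from them. Of the 100 features highest in the paste libraries, a list that used no control, 0 were called (limma, smallest adjusted p = 0.204), 21 passed an unadjusted p of 0.05, and their median log2 change was -0.37. Time after wounding cannot be told apart from anything else that differed between the sampling days.

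By identifier, 86 of the 100 members carried the prefix PITA_, 12 the prefix PITAhm_ and 2 a transcript name. Among all 8949 features these classes made up 65.6%, 18.1% and 16.3%. The 12 with the prefix PITAhm_ held 3.20% of the signal of a control library on average, and the 2 transcript-named members 0.654%. What the prefixes stand for is not given in the sources used here. No member had a low-data status in the files. In the scarcest case, in paste day 15 replicate 3, a member still rested on 70.0 estimated fragments.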

How the data were processed

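RNA from 16 libraries of slash pine cambium was measured by single-end sequencing after ribosomal RNA depletion, per the labels' protocols. The submitters' processing notes name Cufflinks 2.1.1, HISAT2 2.0.4, Trimmomatic 0.32 and FastQC. Build, annotation, strand and multiple matches are each not given in the sources used here, so near-identical or overlapping features may share fragments. The deposited values are a signal, an estimated fragment count divided by a size factor, per the file headers and the values. Of values up to 20.5 times the worth of 1 fragment, 96.6% to 98.0% were whole fragments to a tolerance of 0.1, and the total over that worth gives the estimated fragments. The rest are fractional estimates, so no count model was used.

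Features were ranked by their mean over the 8 controls and the first 100 taken. The members and lists were chosen with earlier results of these data known. The tests covered 5856 of 8949 features, those reaching 10 in 4 or more libraries. Limma 3.58.1 in R 4.3.3 was fitted to log2(value + 1) with 4 group means over all 16 libraries, an intensity trend and robust variances. Two-sided p-values were adjusted by Benjamini-Hochberg across all tested features, and changes are on the log2(value + 1) scale. The fit was also run on simulated libraries drawn independently of each other. They held no nearly identical pair and no libraries deviating together, so that run says nothing about these traits of the data. Shares were compared by exact permutation of libraries with scipy 1.17.1. Intervals and shares cover counting error only. Where nothing says that libraries came from separate trees, p-values measure only the spread between these libraries.

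Named members were the 5 most abundant, the 2 largest rises and falls of both paste comparisons and of the days in paste trees, called members up to 2 in a direction, the members and features at ranks 99 to 102, and the steadiest and least steady member over paste libraries. Same-numbered libraries of paste and control had deviations correlated at -0.378 to 0.130 and those of the 2 days with paste at -0.311 to 0.577, so numbers were not taken to pair them. In controls every same-numbered pair of the 2 days was above 0.1, and the block is given there. Alternatives were other scalings, pseudocounts of 0.5 and 4, no filter, voom with quality weights for libraries, only the groups compared, the replicate block, other lists and leaving out libraries.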

Additional observations from a re-analysis of the deposited data

Results flagged for a closer look

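Among 84 groups of 4 values examined (shares, numbers of members in a library's own top 100, and counts of named members), 15 held 1 library far from the other 3. By chance alone about 1 in 20 such groups would be picked out if values were independent and normally distributed. Some groups here share values and some members were named for extreme estimates, so 15 is not set against that rate. The share of the 100 members was 38.3% in control day 5 replicate 3 against 32.6% to 33.4% in the rest of its group. PITA_000008841 took 11.3% of control day 15 replicate 1 against 3.07% to 3.59%. Its count there was 584443 against 130123 to 145033, and in control day 5 replicate 3 it was 295105 against 129449 to 141610. In control day 15 replicate 1, PITA_000007991 reached 106830.0 against 19079 to 25327. PITA_000038287 reached 78808 in the same library (others 1156 to 5387), 29220.0 in control day 5 replicate 3 (others 2055 to 4086) and 15258 in paste day 5 replicate 2 (others 81.2 to 1796). PITA_000053371 reached 18387 in control day 5 replicate 3, where the others lay at 6869 to 7361.

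In paste libraries, PITA_000021201 reached 8216 in paste day 5 replicate 4 (others 258 to 542) and 4268 in paste day 15 replicate 2 (others 110.2 to 649). PITA_000070401 reached 124970.0 in paste day 15 replicate 3 (others 10008 to 26389). PITA_000009570 reached 31035 in paste day 5 replicate 1 (others 616 to 3077). In day 15 controls replicate 2 was the high library for 2 members, PITA_000049703 at 6758 against 197 to 1193 and PITA_000029808 at 22030.0 against 12139 to 13605.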

How the results depend on the processing

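The count of 4 members called at day 5 became 2 with a pseudocount of 0.5 (0.410% of all features) and 1 with no filter (0.233% of the 7735 features then tested). It became 7 with voom and quality weights (6 lower, 1 higher, and 1.18% of all features). With only the groups compared it became 3 (1 of the 4 and 2 others, and 1.74% of all features). With the replicate block it became 1 (0.359% of all features). It became 1 without the nearly identical pair (0.239% of all features), and 15 without it and paste day 15 replicate 3, against 9.17% of all features. Leaving out 1 library gave 1 to 11 calls, the 11 without paste day 15 replicate 3 against 2.92% of all features. There was 1 call without each day 5 control, paste day 5 replicates 1, 2 and 3, control day 15 replicates 3 and 4, and paste day 15 replicates 1 and 4. In these fits with 1 call, 0.120% to 0.376% of all features were called. The first 50 members held 2 calls and the first 200 held 7, and the list from day 15 controls 2. With each library scaled to its total there were 4 calls, of which PITA_000070401 was higher, against 0.700% of all features. The replicate block called 1 member at day 15, PITA_000018354, against 0.0512% of all features. That feature was not in the list from day 5 controls and was a member only through the day 15 controls. Those controls are 1 side of this comparison, so no test is read from the call. Between days in paste trees the count of 0 became 24 only without the pair and paste day 15 replicate 3, among the alternatives run (19.7% of all features). Between days in controls it became 7 with the controls alone (1.16% of all features) and 7 with voom weights (0.751%). It became 3 without the pair and paste day 15 replicate 3 (0.666%), and 2 with the replicate block in controls (0.768%).

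The overlap of 73 with the paste list was 32 for the first 50 and 151 for the first 200. The share of the day 15 list at day 5 differed by -4.39 points for the first 50 features (exact permutation p = 0.0571), -4.30 without the pair, and -2.75 to -4.57 without 1 library. For the day 5 list at day 15 the values were -5.65 without the pair, -5.59 without it and paste day 15 replicate 3, and -3.75 to -6.74 without 1 library. With 3 libraries in a group no exact permutation p can fall below 0.0571, so these say nothing about stability. With the replicate block the differences are -3.94 and -5.60 by construction (exact sign-flip p = 0.125, the smallest possible). Lists from paste libraries gave 2.67 at day 5 and 0.0047 at day 15, and each library's own list 1.04 and -2.15. Without the pair these became 4.22 and 0.332 for the paste lists and 2.29 and -1.61 for own lists. Without the pair and paste day 15 replicate 3 the paste lists gave -3.28 and -4.26, and own lists -4.50 at day 15. For the paste lists, setting that replicate aside favours the turn. The cause of these differences was not tested.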
